A study of Mus musculus with 10 samples.

Results

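Renin is the aspartyl protease that cuts angiotensinogen and so starts the cascade that raises blood pressure and retains salt. In the adult kidney it is made by juxtaglomerular cells, modified smooth muscle cells in the wall of the afferent arteriole, which store it in granules and release it when perfusion pressure falls, when sympathetic nerves act through beta1-adrenergic receptors and cyclic AMP, or when the macula densa signals low salt. Pressure, angiotensin II and calcium act in the opposite direction, and the transcription of the renin gene follows the same controls as release. The members described here are Ren1, the mouse renin gene, and EYFP, the message of the yellow fluorescent protein reporter that marks renin cells in these mice. They were taken as the rows of the deposited gene table with those symbols, which makes 2 of 32648 genes.

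All the mice were adult C57BL/6 animals of 8 to 12 weeks that carried the Ren1c-YFP reporter, in which yellow fluorescent protein is placed under renin regulatory sequence. The 4 groups were the right kidneys of 3 mice 72 h after aortic coarctation, the left kidneys of the same 3 mice, the right kidneys of 2 sham-operated mice and the left kidneys of the same 2 mice. The constriction was placed between the origins of the renal arteries, and in the sham operation the aorta was neither exposed nor narrowed. From each kidney cortex 1000 living cells positive for the fluorescent protein were sorted, so the gate used the protein product of EYFP and the measurement is of its RNA. The labels give no pressures and do not say which kidney lay beyond the constriction. As background, the mouse right renal artery as a rule arises higher on the aorta than its left counterpart.

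The 10 libraries held 20029817 to 32006229 estimated counts. Levels are given in TPM, the share of all transcripts after correction for their length. On the first principal component of log2 CPM, which are counts scaled to library size, sham mouse 1 lay highest (128 for its right and 107 for its left kidney). The other libraries ran from -74.4 (left kidney of coarctation mouse 1) to 1.12. On the second, coarctation mouse 1 lay highest (110 for its right and 72.5 for its left kidney). The others ran from -64.9 (right kidney of sham mouse 2) to 10.7. The sign of a component is arbitrary. Of 14 renin cell markers, 12 were matched by symbol, and none of these was at 0 in all libraries. Their summed level was 12334 to 20913 TPM in coarctation right kidneys, 16521 to 29026 TPM in coarctation left kidneys, 16806 to 29442 TPM in sham right kidneys and 16906 to 26165 TPM in sham left kidneys. Most of this sum came from Crip1, which averaged 14234 TPM in coarctation right and 17298 TPM in coarctation left kidneys. Akr1b7 followed, with 2720 and 4978 TPM. The sum thus says little of the scarcer markers.

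Ren1 lies on chromosome 1 of GRCm38, chr1:133350510-133360325 on the plus strand. GENCODE vM21 lists a transcript of 9 exons and 1592 bases for it, and a short transcript of 2 exons and 215 bases. The reporter is driven by renin regulatory sequence, so the promoter beside the renin start site bears on both members. A stretch of 30 bases upstream of the RefSeq start (GRCm38.p6, plus strand) is shown for that reason. It holds a TATA box, in capitals, 29 bases before the start.
TATA box, chr1:133350635-133350664: acatggtgtgTATAAAagaaggctcagggg
The longer first exon that GENCODE draws starts upstream of this stretch. Motifs were searched on both strands of the 250 bases before the start of 32851 RefSeq promoters, of which 12.37% held TATAAA. The cyclic AMP response element TGACGTCA (in 1.546% of promoters), the RBPJ site TGGGAA (21.59%), the nuclear receptor half-site TGACCT (14.02%) and the E-box CANNTG (66.22%) had no match in the 250 bases before the start of Ren1. That says only that the letters are not in this window. Which renin sequence drives the reporter is not given in the sources used here.

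Renin message was at the top of the transcriptome in every group except the right kidneys of coarctation mice. Ren1 stood at 5451, 11982 and 10835 TPM in the right kidneys of coarctation mice 1, 2 and 3, and at 29285, 48619.9 and 36877 TPM in their left kidneys. In sham mice 1 and 2 it stood at 21776 and 48591 TPM in right kidneys and at 30521 and 43896 TPM in left kidneys. The 3 coarctation right kidneys were below the other 7, and their values did not overlap with any other group. Of the 18825 genes tested, 2.97% had coarctation right values wholly below the coarctation left ones. For 11.0% they were wholly below the sham right ones. The share below all of the other 7 was not counted. Among all genes of its library Ren1 ranked 26, 5 and 8 in these right kidneys. It ranked 2, 1 and 1 in the coarctation left kidneys, 2 and 1 in sham right kidneys and 2 and 1 in sham left kidneys. Where it ranked 2, the gene above it was Gm29216, a predicted gene. Its share of all transcripts was 0.545%, 1.20% and 1.08% in the coarctation right kidneys and 2.18% to 4.86% in the other 7 libraries.

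The reporter message was far scarcer than renin and followed it in the coarctation mice. EYFP stood at 60.6, 174 and 164 TPM in the right kidneys of coarctation mice 1, 2 and 3, and at 413, 959 and 369 TPM in their left kidneys. In sham mice 1 and 2 it stood at 176 and 979 TPM in right kidneys and at 189 and 717 TPM in left kidneys. The coarctation right kidneys were again below the left kidneys of the same mice with no overlap, as in 2.97% of all genes tested. Sham mouse 1 was the exception among the controls, since both of its kidneys lay close to the highest coarctation right kidney (174 TPM), while sham mouse 2 lay among the highest libraries. Estimated counts behind these levels were 593 to 9771 per library for EYFP and 273274 to 2482179 for Ren1.

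**Figure D1:**
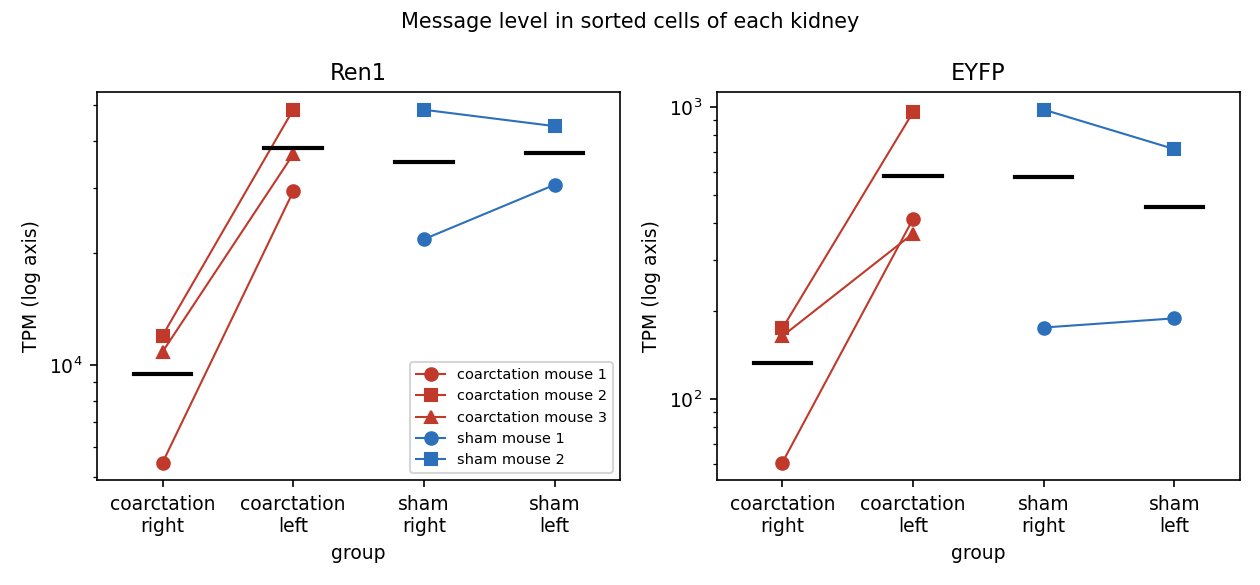
Ren1 (left panel) and EYFP (right panel) in TPM on a log axis, for each kidney, with lines joining the kidneys of a mouse and black bars for group means. The 3 coarctation right kidneys (5451 to 11982 TPM of Ren1 and 60.6 to 174 TPM of EYFP) sit below the left kidneys of the same mice, whereas the sham mice differ between sides by -0.49 to 0.45 on the log2 scale.

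The deposited table gives each gene an average transcript length in each library, which enters the TPM. For Ren1 it was 1249 to 1423 bases and for EYFP 246 to 277 bases. Both lengths rose and fell with those of other genes: relative to the median of 1824 genes with a mean of at least 50 TPM, they stayed between 97.2% and 104% for Ren1 and between 96.0% and 104% for EYFP. The length assigned to EYFP sets its level against Ren1, and it is shorter than the whole coding sequence of the fluorescent protein. Because it also varied between libraries, it may not be the length of the sequence itself. It therefore does not show whether the whole reporter or a part of it was counted, which the sources used here do not give. The EYFP levels, and EYFP as a percent of Ren1 below, hold for that assigned length.

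Within coarctation mice, the first comparison asks whether renin and its reporter differ between the kidneys on the sides of the constriction. Ren1 averaged 9423 ± 3487 TPM in right kidneys and 38261 ± 9741 TPM in left kidneys (SD, n = 3 each), and EYFP averaged 133 ± 63.0 TPM in right kidneys and 580 ± 329 TPM in left kidneys. The fitted fold differences of the members were nearly equal, 4.59-fold lower in the right kidney for Ren1 (log2 change -2.20, SE 0.36, 95% interval -2.98 to -1.42) and 4.87-fold lower for EYFP (log2 change -2.28, SE 0.67, 95% interval -3.73 to -0.84). Neither passed edgeR's quasi-likelihood test without pairing of the kidneys (adjusted p = 0.165 for Ren1 and 0.921 for EYFP), in which 0 of 18825 genes (0.0%) passed. In that test 871 genes (4.63%) had an unadjusted p under 0.05, DESeq2 called 76 genes and limma-voom 0. Ren1 had the 4th smallest p of all genes and EYFP the 90th.

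With mouse as a block, which compares the kidneys of the same animal, Ren1 fell in the right kidney in edgeR's quasi-likelihood test (log2 change -2.23, SE 0.14, adjusted p = 0.00275). Its SE without the block was 0.36. It then had the smallest p of all genes, and 5 genes passed (0.0266% of those tested), the others being Aldh7a1, Kiss1 and Manf, which were lower in the right kidney, and Spink8, which was higher. Coarctation mouse 1 and sham mouse 1 were the highest on the principal components given above. Without the block, the change of Ren1 was -2.09 without coarctation mouse 1 and -2.20 without sham mouse 1, and that of EYFP was -2.12 and -2.28. With the block, EYFP had the 11th smallest p and did not pass (log2 change -2.30, SE 0.31, adjusted p = 0.0734). Left out in turn, only coarctation mouse 2 ended the blocked call of Ren1 among the 5 mice (adjusted p = 0.0549 without it, with 0 genes called). EYFP passed in 1 of those 5 fits, that without coarctation mouse 3 (log2 change -2.74, adjusted p = 0.0355). A renin cell with less renin message and a smaller share of renin cells among the 1000 sorted cells cannot be told apart in these libraries, here or in the comparisons that follow.

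Both members were lower in the right kidney of each coarctation mouse. On the log2 scale of TPM, Ren1 changed by -2.43, -2.02 and -1.77 from left to right in coarctation mice 1, 2 and 3, which made the left kidney 5.37, 4.06 and 3.40 times as high. EYFP changed by -2.77, -2.46 and -1.17, with the left kidney 6.83, 5.50 and 2.25 times as high. All 3 mice thus moved downward by over 2-fold in both members, and EYFP varied more between mice (mean -2.13 ± 0.85, SD, n = 3) than Ren1 (mean -2.07 ± 0.33). Of the 18825 genes tested, 13.5% were lower in the right kidney of each of the 3 mice, 0.94% were lower by over 2-fold in each, and 2.97% had right kidney TPM values wholly below the left ones. An exact sign-flip permutation test over 3 mice cannot give a p below 0.25, which is what it gave for both members (two-sided).

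The sham mice give the side difference of an unconstricted aorta. Ren1 changed by -0.49 and 0.15 on the log2 scale of TPM in mice 1 and 2, and EYFP by -0.10 and 0.45. In each member mouse 1 was lower and mouse 2 higher in the right kidney. Ren1 averaged 35184 ± 18961 TPM in right kidneys and 37209 ± 9457 TPM in left kidneys (SD, n = 2 each), with a fitted log2 change of -0.09 (SE 0.42, 95% interval -1.003 to 0.83, adjusted p = 1). EYFP averaged 577 ± 568 TPM in right kidneys and 453 ± 373 TPM in left kidneys (log2 change 0.35, SE 0.78, 95% interval -1.34 to 2.04, adjusted p = 1). No gene passed edgeR here (0 of 18825, 0.0%), with 366 (1.94%) at an unadjusted p under 0.05, 28 called by DESeq2 and 0 by limma-voom. For Ren1 the interval runs from 0.499-fold to 1.77-fold. Both signs turned when 1 sham library was left out: without the right kidney of mouse 1 the change of Ren1 was 0.45, and without the right kidney of mouse 2 that of EYFP was -1.59.

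**Figure D2:**
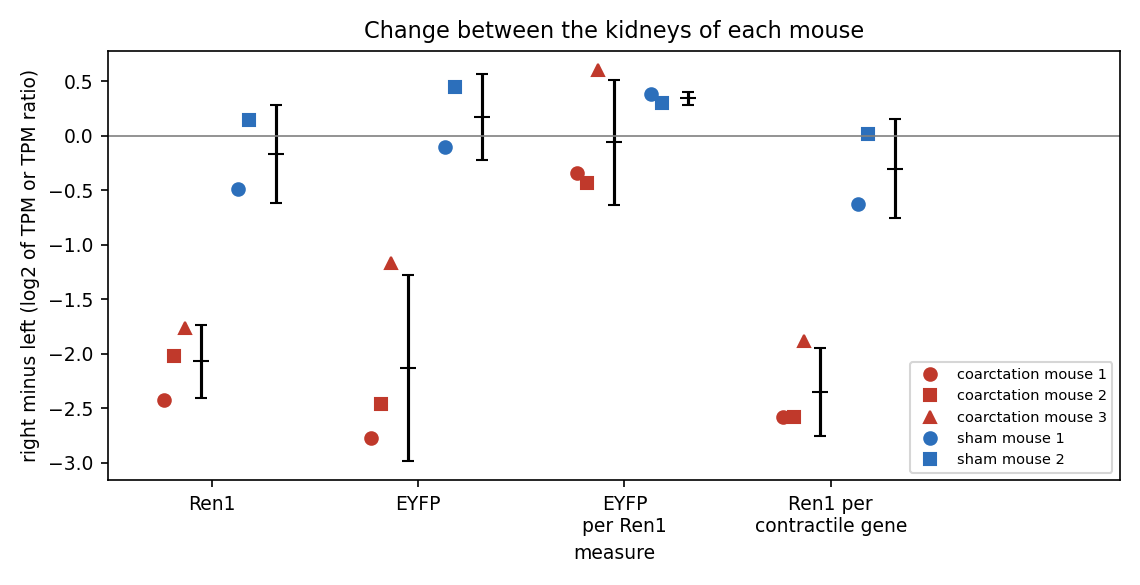
Right minus left difference within each mouse, on a log2 scale, for Ren1, EYFP, EYFP per Ren1 and Ren1 per contractile gene, with the mean and SD of each condition as black bars (3 coarctation and 2 sham mice). Ren1 and EYFP lie between -2.77 and -1.17 in coarctation mice and between -0.49 and 0.45 in sham mice, and EYFP per Ren1 lies on both sides of 0.

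The next comparison asks whether the side difference in coarctation mice went beyond that in sham mice. It was 4.32-fold for Ren1 (log2 difference -2.11, SE 0.55, 95% interval -3.31 to -0.92) and 6.21-fold for EYFP (log2 difference -2.63, SE 1.03, 95% interval -4.86 to -0.41), both downward. Neither passed edgeR over all genes (adjusted p = 1 for both). With mouse as a block Ren1 had the smallest p of all genes but did not pass (log2 difference -2.02, SE 0.21, adjusted p = 0.181), and EYFP did not either (log2 difference -2.43, SE 0.47, adjusted p = 0.599). No gene passed without the block (0 of 18825, 0.0%), with 575 (3.05%) at an unadjusted p under 0.05, 34 called by DESeq2 and 0 by limma-voom. The mean side change of log2 TPM for Ren1 was -2.07 ± 0.33 in coarctation mice and -0.17 ± 0.45 in sham mice (SD, n = 3 and 2), and the exact permutation test over mice gave p = 0.1 (two-sided), the smallest that 3 mice against 2 allow. Without the right kidney of sham mouse 2 the fitted difference was smaller, -1.23 for Ren1 and -0.69 for EYFP. It was larger for EYFP without the left kidney of that mouse (-4.03). Without both kidneys of coarctation mouse 1 it was -2.002 for Ren1 and -2.47 for EYFP, and without both kidneys of sham mouse 1 it was -2.35 for Ren1 and -2.74 for EYFP.

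Between conditions, the members were lower in the right kidneys of coarctation mice with no overlap, and their levels overlapped in left kidneys. In right kidneys Ren1 was 3.60-fold lower in coarctation mice than in sham mice (log2 change -1.85, SE 0.38, 95% interval -2.67 to -1.02) and EYFP 4.31-fold lower (log2 change -2.11, SE 0.71, 95% interval -3.64 to -0.57). Ren1 had the smallest p of the 18825 genes in this comparison without passing (adjusted p = 0.995), and EYFP had the 143rd (adjusted p = 0.995). The coarctation and sham values did not overlap for either member, as in 11.0% of all genes tested, although for EYFP the highest coarctation right kidney (174 TPM) and the lowest sham right kidney (176 TPM) nearly met. None of the genes passed edgeR (0 of 18825, 0.0%), with 720 (3.82%) at an unadjusted p under 0.05, 55 called by DESeq2, among them Ren1 (adjusted p = 0.0384), and 0 by limma-voom. These values rest on the right kidney of sham mouse 2, without which the log2 change was -0.96 for Ren1 and -0.16 for EYFP. Without sham mouse 1 it was -2.38 for Ren1 and -2.90 for EYFP, and without coarctation mouse 1 it was -1.63 and -1.81.

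In left kidneys Ren1 averaged 38261 ± 9741 TPM in coarctation mice and 37209 ± 9457 TPM in sham mice (log2 change 0.26, SE 0.39, 95% interval -0.58 to 1.10, adjusted p = 0.937). EYFP averaged 580 ± 329 TPM in coarctation mice and 453 ± 373 TPM in sham mice (log2 change 0.53, SE 0.72, 95% interval -1.04 to 2.09, adjusted p = 0.932). The groups overlapped in both members. Without sham mouse 1 both signs turned (-0.026 for Ren1 and -0.16 for EYFP), and without coarctation mouse 1 the changes were 0.37 and 0.66. The 95% interval for Ren1 reaches from 0.67-fold to 2.15-fold. No gene passed edgeR (0 of 18825, 0.0%), with 894 (4.75%) at an unadjusted p under 0.05, 39 called by DESeq2 and 0 by limma-voom.

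Because the ratio of the members within a library needs no scaling between libraries, it gives a further view of how closely the reporter tracks the gene. EYFP amounted to 1.11%, 1.46% and 1.51% of the Ren1 level in the right kidneys of coarctation mice 1, 2 and 3, and to 1.41%, 1.97% and 0.999% in their left kidneys. In sham mice 1 and 2 it amounted to 0.807% and 2.01% in right kidneys and to 0.619% and 1.63% in left kidneys. The kidneys of sham mouse 1 held the lowest ratios of all and those of sham mouse 2 were among the highest, so that the sham mice differed from each other by more than the sides of either mouse did. From left to right the ratio changed by -0.35, -0.44 and 0.60 on the log2 scale in coarctation mice 1, 2 and 3, and by 0.38 and 0.30 in sham mice 1 and 2. Its mean change was -0.06 ± 0.57 in coarctation mice (SD, n = 3) and 0.10 ± 0.46 over all 5 mice (exact sign-flip permutation test, two-sided, p = 0.688, where the smallest possible is 0.0625). Averaged over both kidneys of a mouse, the log2 ratio was -6.18 ± 0.26 in coarctation mice and -6.46 ± 0.96 in sham mice (exact permutation test, two-sided, p = 0.9, where 0.1 is the smallest possible). These p-values do not show that the members changed alike.

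Renin cells are of the smooth muscle lineage, so renin was also set against contractile genes. The 14 contractile genes include Acta2, which encodes smooth muscle actin, and Myh11, the smooth muscle myosin heavy chain. Ren1 was at 0.575, 0.620 and 0.627 times their summed TPM in the right kidneys of coarctation mice 1, 2 and 3, and at 3.43, 3.72 and 2.32 times in their left kidneys. In sham mice 1 and 2 it was at 2.92 and 2.86 times in right kidneys and at 4.501 and 2.82 times in left kidneys. The coarctation right kidneys thus lay close together, and the other 7 libraries were at 2.32 or higher. The change from left to right was -2.35 ± 0.40 on the log2 scale in coarctation mice (SD, n = 3) and -0.30 ± 0.45 in sham mice (SD, n = 2). Over all 5 mice the exact sign-flip permutation test gave p = 0.125 (two-sided, where the smallest possible is 0.0625). That test pools coarctation and sham mice, so it does not test the coarctation change alone. An exact permutation test of coarctation against sham mice gave p = 0.1 (two-sided), the smallest that 3 mice against 2 allow. The contractile genes themselves had a median log2 change of -0.09 between the coarctation kidneys, 10 of 14 being lower in the right kidney and 0 of 14 passing edgeR, against a median of 0.02 over all genes. Their summed TPM, by which Ren1 was divided, was nonetheless higher in the right kidney of coarctation mice 1, 2 and 3 (log2 changes 0.15, 0.56 and 0.12), which adds to the change of the ratio, and Ren1 alone changed by -2.07 ± 0.33. The smallest p was that of Smtn, the smoothelin gene, at 32.3 ± 8.42 TPM in right kidneys and 43.7 ± 6.59 TPM in left kidneys (log2 change -0.61, SE 0.27). Synpo2 (-0.57, SE 0.34) and Mylk (-0.31, SE 0.30), which encodes myosin light chain kinase, followed.

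**Figure D3:**
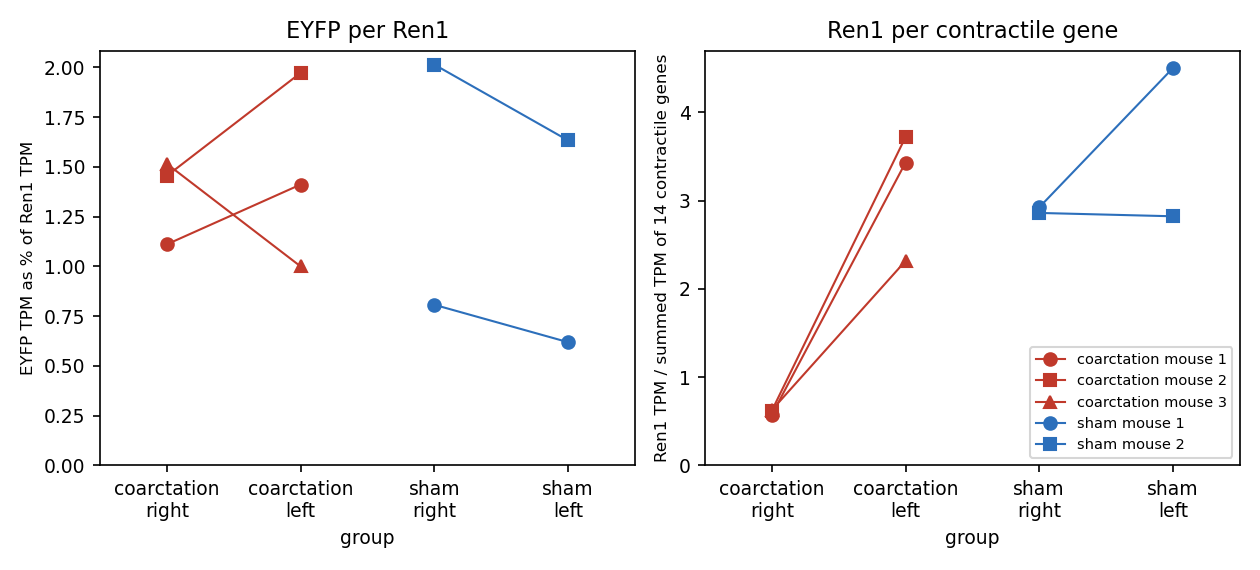
EYFP as a percent of Ren1 (left panel) and Ren1 relative to the summed TPM of 14 contractile genes (right panel) in each kidney, with lines joining the kidneys of a mouse. The first ratio runs from 0.619% to 2.01% with no common direction between sides, and the second is at 0.575 to 0.627 in coarctation right kidneys against 2.32 to 4.501 in the other 7 libraries.

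Markers of other cells that a kidney sort may carry were compared over the same sides. Of 20 markers of the loop, distal tubule and collecting duct, 16 had higher fitted values in coarctation right kidneys than in the left ones (median log2 change 1.09), with a summed level of 246 to 1271 TPM in right kidneys and 149 to 393 TPM in left kidneys. In sham mice their sum was 206 to 428 TPM in right kidneys and 442 to 701 TPM in left kidneys. Within coarctation mice 1, 2 and 3 this sum changed by 1.69, 0.01 and 1.34 on the log2 scale. Leukocyte markers had higher values for 11 of 18, and their sum changed by 3.29, -0.64 and 2.11, against -1.71 and 1.24 in sham mice 1 and 2. Mesangial markers, with higher values for 4 of 7 (median 0.08), had sums that changed by 0.67, 0.56 and 0.58 in coarctation mice. In sham mice 1 and 2 these sums changed by 0.01 and 0.46. Of 16 proximal tubule markers 15 had lower values in coarctation right kidneys (median -0.50), but their summed level changed by -0.08, 1.07 and -1.02 in coarctation mice. It lay between 2721 and 5861 TPM in their right kidneys and 1808 and 11921 TPM in their left kidneys. Podocyte, endothelial and macula densa markers summed to 148 TPM or less in every library, and fibroblast markers to 74.5 TPM or less. Erythroid markers summed to 152 to 15981 TPM in coarctation right kidneys and 2086 to 4735 TPM in coarctation left kidneys. No member of these lists was at 0 in all libraries, and 0 of them passed edgeR. Their part in the renin result was not tested.

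The genes whose level was most like that of Ren1 over the 10 libraries were ranked by Pearson's r of log2 CPM, among 5999 other genes with a mean of at least 4 on that scale. These libraries come from 5 mice, so kidneys of a mouse are not independent and the coefficients are a description. EYFP ranked 9 with r = 0.91, and 11 genes (0.183%) had r above 0.9, against a median of 0.08. The closest was Aldh7a1, an aldehyde dehydrogenase of lysine breakdown (r = 0.97), which stood at 87.0 ± 34.0 TPM in coarctation right kidneys, 408 ± 232 TPM in coarctation left kidneys, 363 ± 172 TPM in sham right kidneys and 398 ± 164 TPM in sham left kidneys. It was followed by Ptp4a3, a protein tyrosine phosphatase (0.95), Gpi1, the glycolytic glucose-6-phosphate isomerase (0.95), Rasal1, an activator of Ras GTPase activity (0.95), the tubulin gene Tubb5 (0.94), Npr3, the natriuretic peptide clearance receptor (0.93), Maged1 (0.93) and Senp6, a SUMO protease (0.92). At the other end stood Fry (-0.91), Trappc10 (-0.90), Otud1 (-0.89), Arid1b (-0.89) and Map3k1 (-0.86).

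For EYFP the closest were Ptp4a3 (r = 0.99) and Gpi1 (0.96), then Selenom, a selenoprotein of the endoplasmic reticulum (0.95), Slco2a1, a prostaglandin transporter (0.95), and Ctsb, the lysosomal protease cathepsin B (0.95). Ren1 ranked 16 in that list. Ptp4a3 and Gpi1 were therefore near both members. Ptp4a3 stood at 68.4 ± 29.2 TPM in coarctation right kidneys and 163 ± 54.0 TPM in coarctation left kidneys, and in sham mice at 154 ± 85.5 TPM in right kidneys and 152 ± 64.2 TPM in left kidneys.

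When the 5 side changes alone were compared, which sets aside the level of each mouse, EYFP was among the nearest of all genes to Ren1. On the log2 CPM scale, Ren1 changed from left to right by -2.52, -2.17 and -1.998 in coarctation mice 1, 2 and 3 and by -0.57 and 0.15 in sham mice 1 and 2. EYFP changed by -2.86, -2.61, -1.40, -0.19 and 0.45 in the same order. It ranked 4 of 5999 genes by root mean square difference to Ren1 (0.43, against a median of 1.76). Nearer were Npr3 (0.21), Manf, a protein induced by stress of the endoplasmic reticulum (0.36), and Aldh7a1 (0.38). Npr3 itself was scarce, at 1.19 ± 0.20 TPM in coarctation right kidneys and 5.03 ± 1.73 TPM in coarctation left kidneys, and at 3.99 ± 1.70 TPM in sham right kidneys and 4.42 ± 1.20 TPM in sham left kidneys. After EYFP came Plpp5, a lipid phosphate phosphatase (0.51), Qpct, a glutaminyl cyclase (0.53), Eno3, the muscle form of enolase (0.55) and Mapt, which encodes tau (0.61).

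**Figure D4:**
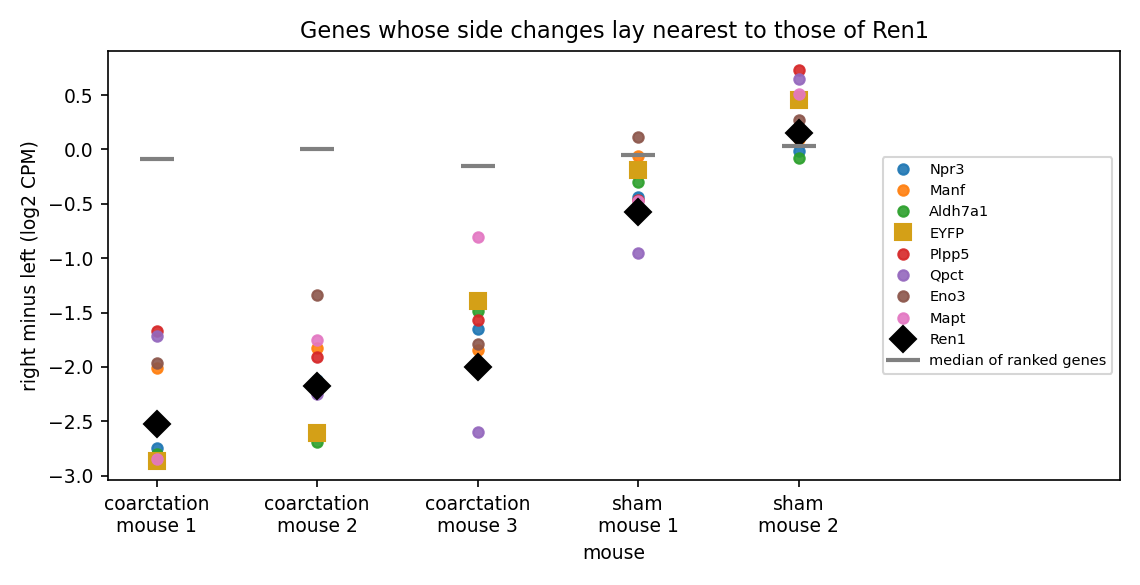
Right minus left difference in log2 CPM in each of the 5 mice for Ren1 (black diamonds), EYFP (yellow squares) and the genes nearest to Ren1 by these differences, with grey dashes for the median of 5999 ranked genes. Ren1 and EYFP lie between -2.86 and -1.40 in the coarctation mice and between -0.57 and 0.45 in the sham mice, while the median gene lies near 0 throughout.

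The neighbourhood of Ren1 shows whether the side difference extended along the chromosome. Within 250 kb of the gene GENCODE places 13 other genes, of which 9 were tested. Etnk2, an ethanolamine kinase gene that starts 3247 bases downstream of Ren1, stood at 10.96 ± 5.902 TPM in coarctation right kidneys and 8.83 ± 5.70 TPM in coarctation left kidneys (log2 change 0.15, SE 0.65, adjusted p = 1). Sox13, a transcription factor gene beyond it, had a log2 change of -0.41 (SE 0.42), and Plekha6 upstream one of -0.12 (SE 0.52). Both were lower in 3 of 3 coarctation mice, by less than their errors. Kiss1, the kisspeptin gene, which ends 20609 bases upstream of Ren1, had a side change more than 5 log2 units downward in each coarctation mouse (-6.85, -7.89 and -5.05). Its change in sham mice 1 and 2 was also downward, at -0.86 and -1.38. In coarctation mice Kiss1 stood at 2.66 ± 3.86 TPM in right kidneys and 154 ± 105 TPM in left kidneys. It passed with mouse as a block (adjusted p = 0.0437) and not without (adjusted p = 0.244), and it overlaps Gm28040 (log2 change 0.20, SE 0.64) and Golt1a (log2 change -0.17, SE 1.13), so reads between these genes may be divided uncertainly. Pik3c2b, Ppp1r15b and Snrpe had log2 changes of 0.68 (SE 0.79), -0.40 (SE 0.40) and -0.15 (SE 0.27). None of the 9 neighbours passed edgeR without the block, and 1 passed with it.

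**Figure D5:**
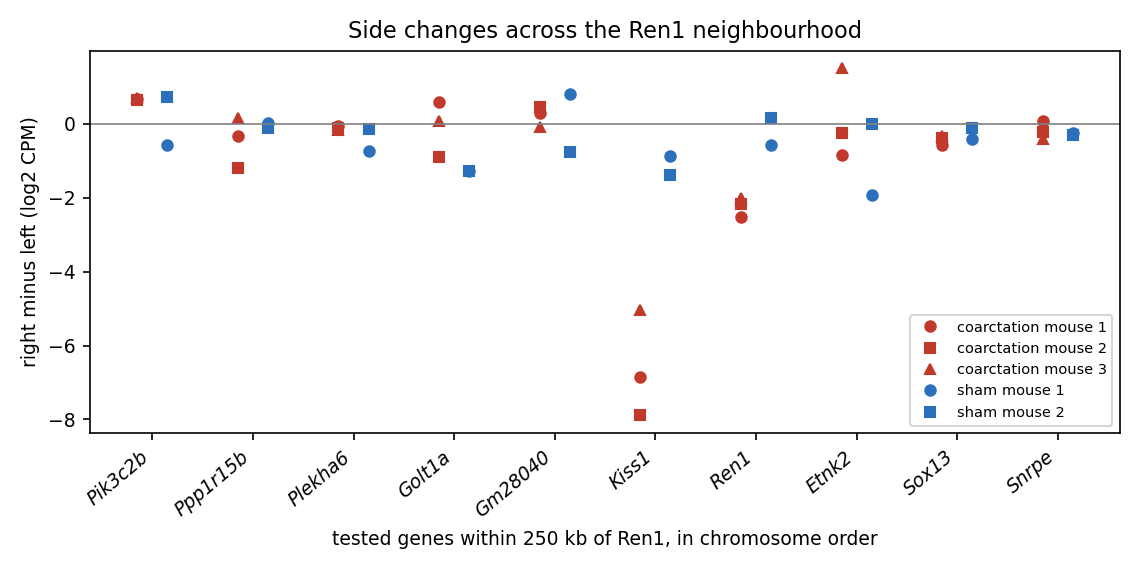
Right minus left difference in log2 CPM in each mouse for Ren1 and the 9 tested genes within 250 kb of it, in chromosome order. Kiss1 (-7.89 to -5.05) and Ren1 (-2.52 to -1.998) lie more than 1 log2 unit below 0 in all 3 coarctation mice. The genes around them lie nearer to 0 in those mice (-1.20 for Ppp1r15b to 1.51 for Etnk2). In sham mice some lie further from 0 than Ren1 (-0.57 and 0.15), as do Etnk2 in mouse 1 (-1.92) and Golt1a in mice 1 and 2 (-1.27 and -1.28).

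The genes known to act on renin were then followed over the same sides of the coarctation mice, by role. Of 27 transcription factors and cofactors of the renin gene, 14 were lower and 13 higher in the right kidney (median log2 change -0.08), 5 were lower in all 3 mice, and 0 passed edgeR. Crem, a cyclic AMP response element modulator, stood at 47.4 ± 7.31 TPM in right kidneys and 73.6 ± 2.43 TPM in left kidneys (log2 change -0.79, SE 0.46), and the histone acetyltransferase gene Ep300 had a log2 change of -0.57 (SE 0.41). In both genes the coarctation right kidney was lower in 3 of 3 mice, although neither passed edgeR (adjusted p = 1).

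The next list held 21 genes of receptors and of the cyclic AMP path that raises renin. In the right kidney 15 were lower and 6 higher (median -0.10), and 0 passed. The list includes phosphodiesterases, which act against cyclic AMP, so the split has no single meaning for renin. Adrb1, the beta1-adrenergic receptor through which sympathetic nerves release renin, had the smallest p of the list. It stood at 3.75 ± 0.879 TPM in right kidneys and 12.6 ± 6.41 TPM in left kidneys of coarctation mice, and at 10.6 ± 3.61 TPM in right kidneys and 13.05 ± 6.03 TPM in left kidneys of sham mice. Between the coarctation kidneys its log2 change was -1.88 (SE 0.49, adjusted p = 0.921 by edgeR). Its level over the 10 libraries had r = 0.93 with Ren1. The phosphodiesterase genes Pde4b and Pde3a, whose products break down cyclic AMP, had log2 changes of -0.91 (SE 0.33) and 0.41 (SE 0.26).

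Of 18 receptors and calcium path genes that lower renin, 13 were lower and 5 higher in the right kidney of sham mice (median -0.24). The coarctation mice had the same split, 13 lower and 5 higher (median -0.07), and 0 passed. Casr, the calcium-sensing receptor, was at 0.051 ± 0.018 TPM in right kidneys and 1.02 ± 0.743 TPM in left kidneys (log2 change -4.45, SE 1.28), and Agtr1b, an angiotensin II receptor, at 5.32 ± 2.67 TPM in right kidneys and 1.38 ± 1.00 TPM in left kidneys (log2 change 1.81, SE 1.04). Stim1, a calcium sensor of the endoplasmic reticulum, had a log2 change of -0.75 (SE 0.48). Of 15 genes of the renin-angiotensin system other than renin, 14 were tested, 9 higher and 5 lower (median 0.12), with 0 called. Agt, which encodes the substrate of renin, was at 1.76 ± 0.956 TPM in right kidneys and 0.497 ± 0.495 TPM in left kidneys (log2 change 1.70, SE 1.20). Mme, which encodes the angiotensin-cleaving protease neprilysin, stood at 6.65 ± 8.26 TPM in right kidneys and 0.797 ± 0.449 TPM in left kidneys (log2 change 3.08, SE 1.10). The mice disagreed on Mme, which was lower in the right kidney of 1 of the 3, and its change with mouse as a block was 2.26 (SE 1.38). Agtr1b, given above, was the other member of smallest p.

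Of 16 genes for processing, sorting and release of renin, 15 were tested, 7 lower and 8 higher (median 0.08), and 0 passed. Ctsb, whose product can cleave prorenin, stood at 116 ± 31.2 TPM in right kidneys and 230 ± 81.3 TPM in left kidneys (log2 change -1.15, SE 0.39, adjusted p = 0.992), and it was lower in 3 of 3 mice. Pcsk5, a proprotein convertase, had a log2 change of 0.78 (SE 0.52) and Gnptab, which tags proteins for lysosomal sorting, of 0.80 (SE 0.55). Renin is folded in the endoplasmic reticulum. A list of 22 genes was made for folding in and entry into that compartment, although Cryab among them encodes a cytosolic protein. Of these, 21 were lower in the right kidney (median -0.69), 17 of them in all 3 mice. Manf stood at 95.9 ± 15.8 TPM in right kidneys and 317 ± 23.7 TPM in left kidneys. Sdf2l1, a chaperone cofactor, stood at 6.19 ± 2.89 TPM in right kidneys and 61.1 ± 14.02 TPM in left kidneys, and Hspa5, the chaperone BiP, at 74.9 ± 16.4 TPM in right kidneys and 206 ± 49.6 TPM in left kidneys. None passed without the block (adjusted p = 0.125 for Manf, 0.156 for Sdf2l1 and 0.244 for Hspa5), and Manf fell with it (adjusted p = 0.0197). In left kidneys 22 of 22 of these genes were higher in coarctation mice than in sham mice (median 0.64), and 0 passed. Ren1 differed there by 0.26 (SE 0.39). In that comparison 51.2% of all genes were lower (median -0.02). Other lists went either way. Higher were 14 of 14 contractile genes and 15 of 16 proximal tubule markers, but 4 of 20 markers of the loop, distal tubule and collecting duct. Between the coarctation kidneys, 48.3% of all genes were lower in the right one (median change 0.02), and 13.5% were lower in all 3 mice.

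Of the other renin cell markers, Gja5, a connexin gene of juxtaglomerular cells, stood at 7.99 ± 4.87 TPM in right kidneys and 16.4 ± 5.57 TPM in left kidneys of coarctation mice (log2 change -1.13, SE 0.50). Akr1b7, a reductase gene used to mark renin cells, stood at 2720 ± 1277 TPM in right kidneys and 4978 ± 1535 TPM in left kidneys (log2 change -1.06, SE 0.55), and Crip1, a LIM protein gene, at 14234 ± 3289 TPM in right kidneys and 17298 ± 4699 TPM in left kidneys (log2 change -0.44, SE 0.26). Each was lower in 3 of 3 mice and none passed (adjusted p = 1). Over the 12 markers, 7 were lower and 5 higher (median -0.06), and the fitted fold difference of Ren1 was above that of each marker named here.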

How the data were processed

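RNA from 1000 sorted cells per kidney was amplified with SMART-Seq v4, per the labels' protocols. The deposited table holds TPM, estimated counts and average transcript length for each gene and library. TPM values are as deposited, per the file headers. The deposited estimated counts are TPM rescaled by average length and by library total, per a column of that table. Per the submitters' processing notes, FastQC and GRCm38 (mm10) were used. No source used here names the aligner, quantifier or annotation. Columns were matched to samples by the library names in the labels, 10 of each kind.

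Estimated counts were rounded and tested with edgeR 4.0.16 in R 4.3.3 (filterByExpr, TMM, quasi-likelihood test, all 10 libraries and 4 groups in a single model, 6 residual degrees of freedom, common dispersion 0.45), with Benjamini-Hochberg adjustment over 18825 genes and a threshold of 0.05. Standard errors and intervals come from that model. The design text calls the mice biological replicates. The labels give both kidneys of each mouse, so mouse as a block was the paired alternative. Deviations from group means correlated between kidneys of a mouse at 0.0307 to 0.398. Other alternatives were DESeq2 1.42.0, limma 3.58.1 (voom), other scalings and filters, and leaving out libraries or mice. The fitting code was also run on simulated counts with known changes, from which no value is used here. Library totals ran between 20029817 and 32006229 estimated counts. Molecular identifiers are not mentioned.

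The members, gene lists and rules for naming genes were chosen with earlier results of these data known. Besides the members, genes were named within 250 kb of Ren1, as the 8 highest and 5 lowest in correlation with Ren1 and the 5 highest with EYFP, as the 8 nearest in side change, and as the 3 of smallest p per list described (marker lists of other cells are given as sums). A list member named by this rule is not reported here. Predicted genes were left out of the correlation ranks. Gene positions are from GENCODE vM21 (GRCm38) and promoter sequence from RefSeq (GRCm38.p6).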

Additional observations from a re-analysis of the deposited data

How the results depend on the processing

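Over the 26 alternatives for the coarctation side difference, Ren1 stayed lower in the right kidney in 26 (log2 change -2.35 to -1.88, adjusted p 1.9e-13 to 0.882) and EYFP in 26 (-2.74 to -1.71). Ren1 passed with the replicate block (-2.23), DESeq2 (-2.17), limma-voom with mouse as a random block (-2.22, chosen after seeing the data) and no filter on low counts (-2.21). Without the filter, Ren1 and EYFP also passed for the side change beyond sham (-2.12 and -2.64) and for right kidneys (-1.82 and -2.10), and EYFP for the coarctation sides (-2.29). The cause was not tested. DESeq2 called Ren1 in right kidneys (-1.85). The block changed no other call of the members, and could not be fitted to comparisons between mice.

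Genes called, 0 by edgeR in each comparison, were 5 with the block, 76 by DESeq2, 6 with the random block and 112 without a filter for the coarctation sides. The counts by DESeq2 and without a filter were 28 and 19 for the sham sides, 34 and 63 for the side change beyond sham, 55 and 70 between conditions in right kidneys, and 39 and 67 between conditions in left kidneys.

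With single libraries or mice left out, the unblocked change of Ren1 ran from -2.32 to -1.88 for the coarctation sides, from -0.97 to 0.45 for the sham sides, from -2.65 to -1.23 for the side change beyond sham, from -0.026 to 0.66 for left kidneys and from -2.38 to -0.96 for right kidneys. That of EYFP ran from -2.48 to -1.71, from -1.59 to 1.74, from -4.03 to -0.69, from -0.16 to 1.92 and from -2.90 to -0.16. With the block and a mouse left out, Ren1 ran from -2.35 to -2.09 for the coarctation sides and from -0.58 to 0.15 for the sham sides, and EYFP from -2.74 to -1.99 and from -0.20 to 0.46. Genes called then numbered 0 to 7 for the coarctation sides with the block (1 without coarctation mouse 1 or without sham mouse 1, 7 without sham mouse 2) and 0 to 3 without it, 0 to 2 for the side change beyond sham with the block and 0 to 3 for right kidneys. Leaving out both kidneys of coarctation mouse 1 or of sham mouse 1 was chosen after seeing the data for the unblocked fits. EYFP per Ren1 ran from -0.025 to 0.23 between sides and from -0.40 to 0.96 between conditions.

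The members had at least 593 estimated counts in every library. These are rescaled values from amplified RNA, and whether sampling depth limited either member was not tested. The number of mice limits every comparison, with 3 coarctation and 2 sham mice.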
